A study of Mus musculus with 12 samples.

Results

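Interferon-stimulated genes are transcripts that cells make in response to interferons. A list of 37 such genes was described here in T cells given a strong or a weak agonist peptide, and its members were the probe sets whose only gene symbol in the platform annotation stood on that list. Of the 37 genes, 32 had such a probe set, with 48 probe sets among the 22690 of the array. An intensity filter kept probe sets whose mean over the 12 arrays reached the 40th percentile, log2 4.475. It kept 39 of the 48 probe sets, for 31 genes, among 13556 probe sets for 7945 genes in the whole table. Ifitm3 did not pass the filter. Isg15 had only a probe set shared with other symbols, and Ifi44, Ddx58, Xaf1 and Ly6e had none of their own, so these 5 genes were not analysed here.

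The cells were 5CC7 T cells, which carry 1 transgenic T cell receptor, moved by adoptive transfer into B10.A recipient mice. The 4 groups, each of 3 arrays, were cells of recipients injected in a tail vein with 2 µg of MCC, the strong agonist of this receptor, with 0.2 µg of MCC, with 2 µg of 102S, the weak agonist, or with 0.2 µg of 102S. All groups shared the transgenic receptor, the recipient strain, the solvent (PBS) and the time of 48 h, and in all of them lymph nodes were pooled and the transferred cells sorted before RNA extraction. No unstimulated cells were analysed here, so a level is given only relative to another peptide or dose. The labels do not say how replicates were made, and p-values measure the spread between these samples only. Replicate 1 differed from replicates 2 and 3 in sex type in each group, and whether the spread between replicates 2 and 3 is technical is not stated. Values are log2 expression as deposited, and a probe set's level is compared only with its own level in other groups.

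Type I interferons bind the receptor of Ifnar1 and Ifnar2 on nearly all cells, and its kinases activate the complex ISGF3, which holds STAT2 and IRF9. ISGF3 binds the interferon-stimulated response element (ISRE) of target genes, whereas interferon-gamma, a main product of activated T cells, acts on gamma-activated sequences (GAS). Target genes then limit viral entry, sense or degrade foreign nucleic acid, present antigen and adjust the pathway itself.

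The start regions of the genes on which the results turn are printed so that the elements they hold can be set side by side. The sequences are RefSeq's, build GRCm38.p6, from 250 bases before to 50 after the annotated start, written 5′ to 3′ on the strand of the gene. Capitals mark matches to an ISRE, searched as GAAA, any 2 bases and GAAA on either strand, or to a GAS, searched as TTC, any 3 bases and GAA, which reads the same on either strand. Ifitm2 (chr7:140955912-140956211, minus strand) and Plscr1 (chr9:92249944-92250243, plus strand) had the widest peptide differences. Ifih1 (chr2:62646206-62646505, minus strand) was also higher with MCC, and Irf1 (chr11:53769764-53770063, plus strand) was lower. Ifit3 (chr19:34583279-34583578, plus strand), an antiviral gene with no call, is set beside them.
Ifitm2: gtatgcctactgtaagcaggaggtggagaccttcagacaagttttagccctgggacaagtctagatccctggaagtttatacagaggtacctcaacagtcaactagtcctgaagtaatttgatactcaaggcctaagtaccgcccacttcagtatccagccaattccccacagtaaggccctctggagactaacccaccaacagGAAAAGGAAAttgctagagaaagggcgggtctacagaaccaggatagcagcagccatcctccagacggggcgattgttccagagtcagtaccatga
Plscr1: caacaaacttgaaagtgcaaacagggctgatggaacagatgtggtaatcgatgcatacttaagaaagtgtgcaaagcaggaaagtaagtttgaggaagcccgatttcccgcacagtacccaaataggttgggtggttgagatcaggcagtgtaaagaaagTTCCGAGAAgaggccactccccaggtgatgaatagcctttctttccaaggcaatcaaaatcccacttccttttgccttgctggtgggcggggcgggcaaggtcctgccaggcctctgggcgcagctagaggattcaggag
Ifih1: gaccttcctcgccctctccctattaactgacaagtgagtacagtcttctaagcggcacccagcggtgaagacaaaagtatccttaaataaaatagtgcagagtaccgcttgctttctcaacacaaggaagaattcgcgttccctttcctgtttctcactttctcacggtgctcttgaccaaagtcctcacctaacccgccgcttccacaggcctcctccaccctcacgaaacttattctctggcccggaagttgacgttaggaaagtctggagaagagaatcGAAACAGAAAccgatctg
Irf1: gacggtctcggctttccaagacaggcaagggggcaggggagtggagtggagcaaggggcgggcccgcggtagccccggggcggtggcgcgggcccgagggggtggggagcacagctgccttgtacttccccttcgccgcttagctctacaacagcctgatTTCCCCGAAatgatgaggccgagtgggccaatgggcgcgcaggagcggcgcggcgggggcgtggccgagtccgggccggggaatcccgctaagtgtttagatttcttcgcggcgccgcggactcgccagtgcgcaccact
Ifit3: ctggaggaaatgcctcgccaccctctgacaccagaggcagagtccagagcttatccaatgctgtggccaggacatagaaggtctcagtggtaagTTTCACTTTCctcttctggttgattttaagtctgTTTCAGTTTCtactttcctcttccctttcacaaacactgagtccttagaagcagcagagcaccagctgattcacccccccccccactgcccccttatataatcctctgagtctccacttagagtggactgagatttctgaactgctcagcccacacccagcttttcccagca
Ifitm2 held 1 ISRE match starting at position -46, Ifih1 1 starting at 33, and Ifit3 2 starting at -156 and -122. Plscr1 and Irf1 held 1 GAS match each, both starting at -90. A second annotated start of Irf1 held neither. Of 30 listed genes found in the table of start regions, 13 (43.3%) held an ISRE match, compared with 3.99% of its 27025 genes, and 10 (33.3%) held a GAS match, compared with 9.55%. Both motifs overlapped at 1 place in Ifitm3 and at 1 in Bst2. Among tested members called in at least 1 comparison and found in the table, 2 of 8 held an ISRE match and 4 of 8 a GAS match. Among those called in none, 8 of 17 held an ISRE match and 5 of 17 a GAS match. These counts describe letters in a window and were not tested. Mx1, Usp18, Dhx58, Tor3a, Zbp1, Ly6e and Parp14 were not found in that table.

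Some properties of the arrays touch every result. Replicate 1 of each group read as female-type, with Xist between 11.7 and 12.3 log2, and replicates 2 and 3 as male-type, with Xist between 4.05 and 5.10. The 3′ probe set of the β-actin control read above its 5′ probe set, a gap that is wider in RNA of lower quality. For 2 µg of MCC this gap had a mean of 0.63 ± 0.12 log2, and for 2 µg of 102S 1.24 ± 0.41 (SD, n = 3 each), and these groups did not overlap. At 2 µg, peptide and this gap therefore cannot be told apart, also under the β-actin covariate used below. For 0.2 µg of MCC the gap was 1.62 ± 0.81, and for 0.2 µg of 102S 1.33 ± 0.88. The doses of MCC did not overlap either, with a highest gap of 0.720 at 2 µg and a lowest of 0.742 at 0.2 µg. In every group the female-type array also had the lowest β-actin gap, so these properties cannot be told apart within groups. All 9 measured T cell markers passed the filter, and none of 5 neutrophil and none of 2 erythroid markers did. Of 31 tested members, 6 read higher on the female-type array than on both male-type arrays in all 4 groups (Samhd1, Irf9, Ifit2, Tap1, Usp18 and Lgals3bp), against 12.2% of all genes. None read lower in all 4 groups, against 5.19% of all genes. The part of these properties in the results was not tested beyond the settings named with each result.

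Most interferon-stimulated genes were not called between the peptides, and those that were went both ways. At 2 µg, 3 of 31 were higher with MCC than with 102S, against 4.43% of all genes tested, and 1 was lower, against 6.83% (limma, Benjamini-Hochberg adjusted p under 0.05). With the replicate number as a block, Isg20 (adjusted p = 0.00951) and Mx1 (0.0278) were also higher. Ifit2 (0.00764) and Irf1 (0.0124) were also lower, making 5 and 3. That block called 1520 of all 7945 genes, in either direction. The replicate numbers met the limit for pairing in this comparison, but that limit cannot tell pairing from sex type. At 0.2 µg, 6 were higher, against 9.09%, and 3 were lower, against 7.02%. The genes called were 10 of 31 over all comparisons, where 20.67% of genes were called in at least 1. The median difference of the 31 was -0.07 log2 at 2 µg, where that of all genes was -0.05, and -0.07 at 0.2 µg, where that of all genes was -0.01. Plscr1 and Ifitm2 differed from the middle of the class by more than 2 log2 at 0.2 µg. They were set beside the class with earlier results of these data known, so this is not an independent result. Both passed the filter only through their MCC arrays. At 2 µg 27 members were not called, and at 0.2 µg 22 were not. Of these, 23 and 20 had 95% intervals that stayed between -1 and 1 log2. In sorted bulk samples, fewer cells with a transcript and less of it per cell cannot be told apart.

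Markers of T cells and of other cells also differed between the groups. Of 9 T cell markers, 0 were called between the peptides at 2 µg. At 0.2 µg 1 was higher with MCC and 1 lower, against 9.09% and 7.02% of all genes, with differences between -0.61 and 1.11 log2. Between the doses of 102S 1 was higher at 2 µg, against 3.30% of all genes. Of all genes, 6.83% were called lower with MCC at 2 µg and 7.02% at 0.2 µg. Of 5 tested markers of CD8 T and NK cells, 2 were lower with MCC at each dose, among them Klrd1, a receptor chain of NK cells and activated CD8 T cells (-2.68 and -2.36 log2). Their summed level over 7 measured genes was 8.13 to 8.44 log2 with 2 µg of MCC, against 9.02 to 9.10 with 2 µg of 102S, and 8.504 to 8.90 with 0.2 µg of MCC, against 9.71 to 9.84 with 0.2 µg of 102S. Ncr1 and Klra1, which mark NK cells, were below the filter. The summed level of 8 B cell markers was 10.74 to 10.96 with 2 µg of MCC, against 11.04 to 11.13 with 2 µg of 102S, and 10.57 to 10.70 with 0.2 µg of MCC, against 11.40 to 11.59 with 0.2 µg of 102S, with Cd79a, Ms4a1, Pax5, Blk and Cr2 below the filter. That sum followed Ighm, which was lower with MCC at 0.2 µg (-0.98 ± 0.09), while Cd79b was higher there (1.26 ± 0.33, adjusted p = 0.0227) and Cd22 differed by 0.998 at 2 µg without a call. The summed level of 10 monocyte and macrophage markers was 11.5 to 11.6 with 2 µg of MCC, against 11.6 to 11.7 with 2 µg of 102S, and 11.6 to 11.7 with 0.2 µg of MCC, against 11.3 to 11.4 with 0.2 µg of 102S, with Cd68, Itgam, Cd14 and Adgre1 among 6 below the filter. Plasmacytoid dendritic cells, which make much type I interferon, had 2 of 4 markers past the filter, with none called between the peptides. Of 8 measured markers of other dendritic cells, 2 passed the filter, also with none called between the peptides. The part of these markers in the results was not tested.

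**Figure D1:**
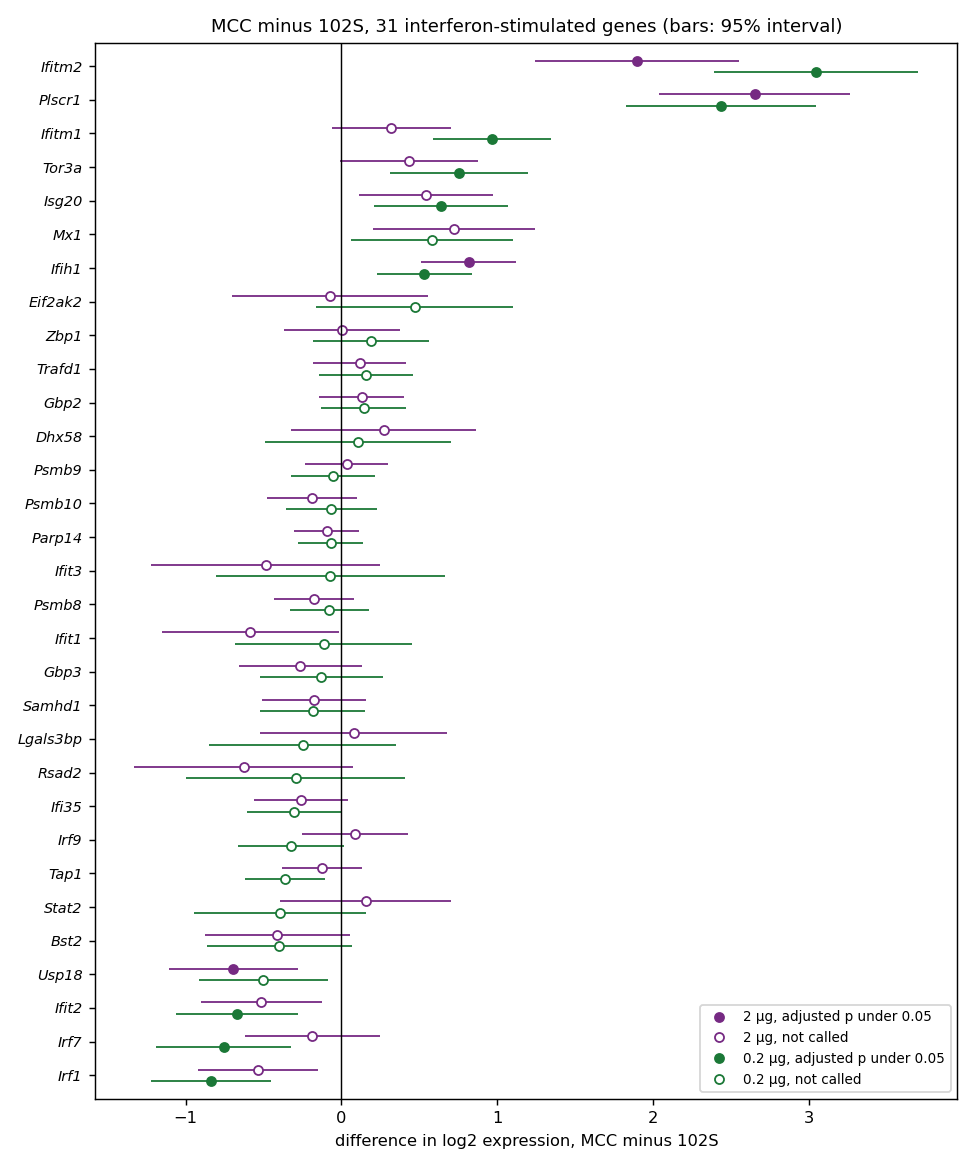
Differences in log2 expression (horizontal axis, MCC minus 102S) of the 31 tested interferon-stimulated genes, at 2 µg (purple) and 0.2 µg (green), with 95% intervals from the fit and filled points for adjusted p under 0.05. Ifitm2 (1.90 and 3.05) and Plscr1 (2.65 and 2.44) lie far to the right, and most other intervals lie within 1 log2 of 0. This fit has no replicate block.

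Of 4 antiviral membrane genes tested, 2 were higher with MCC at 2 µg, against 4.43% of all genes, and 3 at 0.2 µg, against 9.09%. These were Ifitm2 and Plscr1 at both doses and Ifitm1 at 0.2 µg. All of them passed the filter only through their MCC arrays, which favours calls in this direction. These counts therefore do not bear on the genes as a set. Ifitm2, a membrane protein that hinders the fusion of viruses with the cell, read 5.81, 5.97 and 5.36 log2 on the arrays of 2 µg MCC, against 3.60, 3.81 and 4.03 on those of 2 µg 102S. With the lower dose it read 6.26, 7.34 and 7.18 with MCC, against 3.71, 3.53 and 4.39 with 102S. The peptides did not overlap at either dose, and all 6 arrays of 102S lay below the filter level. Because readings there are near those of absent transcripts, the differences of 1.90 ± 0.30 log2 at 2 µg (adjusted p = 0.0021) and 3.05 ± 0.30 at 0.2 µg (adjusted p = 2.72e-05) are lower limits (± SE, limma), and no fold is given.

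Plscr1, a phospholipid scramblase that interferons induce, had 2 probe sets, the one of higher mean being of a kind whose probes can also match other transcripts. On that one Plscr1 read 7.26, 7.35 and 6.64 log2 with 2 µg of MCC, against 4.25, 4.75 and 4.28 with 2 µg of 102S. At 0.2 µg it read 6.24, 6.12 and 5.93 with MCC, against 3.57, 3.13 and 4.28 with 102S. Every MCC array lay above every 102S array, with the 102S means below the filter level. The differences were at least 2.65 ± 0.28 log2 at 2 µg (adjusted p = 0.00018) and 2.44 ± 0.28 at 0.2 µg (adjusted p = 9.28e-05). On the second probe set Plscr1 read 6.75, 6.73 and 7.05 with 2 µg of MCC, against 3.42, 3.80 and 3.59 with 2 µg of 102S, and 5.30, 5.45 and 4.93 with 0.2 µg of MCC, against 3.19, 2.995 and 3.18 with 0.2 µg of 102S. That probe set gave 3.24 ± 0.18 log2 (adjusted p = 9.78e-07) and 2.11 ± 0.18 (adjusted p = 8.94e-06), in the same direction and with no overlap. The calls of Ifitm2 and Plscr1 at both doses held in all 10 other settings and in every omission of 1 array.

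**Figure D2:**
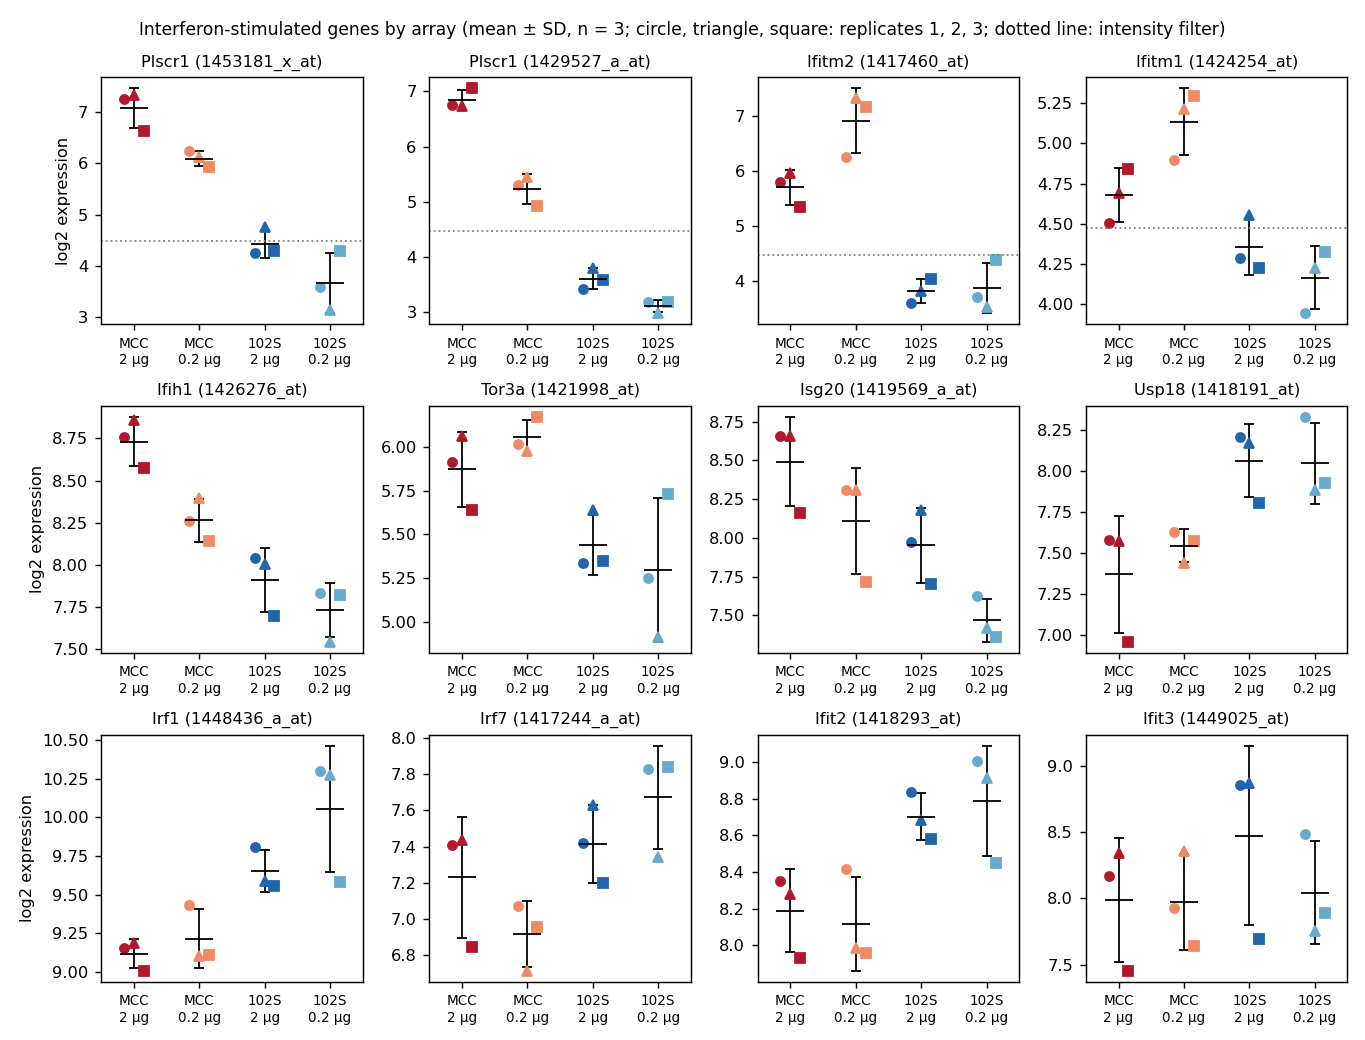
Log2 expression (vertical axes, each with its own range) of the members called between the peptides, and of Ifit3, on the 3 arrays of each group, with mean and SD. Plscr1 and Ifitm2 lie well above the intensity filter (dotted line) with MCC and near or below it with 102S, Ifih1 is highest with 2 µg of MCC, and Irf1 and Ifit2 are higher with 102S.

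Ifitm1, a relative of Ifitm2 at the cell surface, read 4.90, 5.21 and 5.29 log2 with 0.2 µg of MCC, against 3.95, 4.23 and 4.32 with 0.2 µg of 102S. The groups did not overlap, and the difference was at least 0.97 ± 0.17 log2 (adjusted p = 0.00285). It is a lower limit because the 102S means, 4.36 at 2 µg and 4.17 at 0.2 µg, lay below the filter level. Ifitm1 passed the filter, with a mean of 4.58, only through its MCC arrays. At 2 µg Ifitm1 read 4.51, 4.69 and 4.84 with MCC, against 4.29, 4.56 and 4.23 with 102S, which overlapped and did not pass (0.32, 95% interval -0.06 to 0.70, adjusted p = 0.301). Ifitm3, the member of this family best known for blocking influenza virus, stayed under the filter. It read between 3.51 and 3.99 with 2 µg of MCC, against between 4.12 and 4.19 with 2 µg of 102S, and between 4.12 and 5.37 with 0.2 µg of MCC, against between 3.93 and 5.46 with 0.2 µg of 102S. Of these 3 relatives, Ifitm2 had the widest peptide difference. Bst2, the tetherin that holds budding virions at the membrane, ran the other way without a call, at -0.41 log2 (interval -0.88 to 0.06) and -0.40 (-0.87 to 0.07). Under the β-actin covariate it was called lower at 2 µg (-0.64, adjusted p = 0.00704), where peptide and β-actin gap cannot be told apart.

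Among 3 sensors of foreign nucleic acid, Ifih1 was higher with MCC at both doses. Ifih1, which encodes the double-stranded RNA sensor MDA5, read 8.76, 8.86 and 8.57 log2 with 2 µg of MCC, against 8.04, 8.004 and 7.69 with 2 µg of 102S. At 0.2 µg it read 8.26, 8.39 and 8.14 with MCC, against 7.83, 7.54 and 7.82 with 102S. Neither pair of groups overlapped. MCC was 1.76-fold higher at 2 µg (0.82 ± 0.14 log2, adjusted p = 0.00346) and 1.45-fold higher at 0.2 µg (0.53 ± 0.14, adjusted p = 0.0241). The second call was lost without replicate 2 of 0.2 µg MCC (adjusted p = 0.110) or of 0.2 µg 102S (0.112), in the male-type arrays alone (0.0843) and in the 6 arrays of that dose alone (0.0683). Dhx58, the related regulator LGP2, and Zbp1, a sensor of left-handed nucleic acid, were not called, with differences of 0.27 and 0.00488 log2 at 2 µg and 0.11 and 0.19 at 0.2 µg.

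Of 4 transcription factors of the pathway, none was called at 2 µg and 2 were lower with MCC at 0.2 µg, against 7.02% of all genes. Irf1, which interferon-gamma induces and which switches on antigen presentation genes, read 9.43, 9.10 and 9.11 log2 with 0.2 µg of MCC, against 10.30, 10.27 and 9.58 with 0.2 µg of 102S. At 2 µg it read 9.16, 9.19 and 9.01 with MCC, against 9.81, 9.59 and 9.56 with 102S. The peptides did not overlap at either dose. The difference passed at 0.2 µg (-0.84 ± 0.18, adjusted p = 0.00778, 1.79-fold lower) and was lost in the 6 arrays of that dose alone (adjusted p = 0.0632). At 2 µg it did not pass (-0.54 ± 0.18, adjusted p = 0.0782), but 6 of 10 other settings called it, with the lowest adjusted p of 3.61e-05 under the β-actin covariate, as did the omission of replicate 3 of 0.2 µg 102S (0.0112). The β-actin gap did not overlap between the peptides at 2 µg, so the covariate cannot tell peptide from gap there.

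Irf7, which amplifies the production of type I interferon, read 7.07, 6.72 and 6.96 log2 with 0.2 µg of MCC, against 7.83, 7.34 and 7.84 with 0.2 µg of 102S. The groups did not overlap and differed by -0.75 ± 0.20 (adjusted p = 0.0251). The call was lost without replicate 2 (adjusted p = 0.114) or 3 (0.0615) of 0.2 µg MCC and without replicate 1 (0.0977) or 3 (0.0554) of 0.2 µg 102S. It was also lost in the male-type arrays alone (0.0893), in the 6 arrays alone (0.0546) and with the 2 arrays of widest β-actin gap removed (0.105), a setting chosen after seeing the data. At 2 µg Irf7 overlapped between the peptides and did not pass (-0.19 log2, interval -0.62 to 0.25). Irf9 and Stat2, which belong to ISGF3, were not called, at 0.09 and 0.16 log2 at 2 µg and -0.32 and -0.39 at 0.2 µg.

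Of 10 antiviral effectors, none was called at 2 µg. At 0.2 µg 1 was higher with MCC, against 9.09% of all genes, and 1 was lower, against 7.02%. Isg20, an exonuclease that degrades viral RNA, read 8.31, 8.31 and 7.72 log2 with 0.2 µg of MCC, against 7.62, 7.42 and 7.36 with 0.2 µg of 102S. The groups did not overlap, and the difference of 0.64 ± 0.20 log2 lay at the threshold (adjusted p = 0.0486). Leaving out any 1 array other than replicate 3 of 2 µg MCC or of 0.2 µg MCC ended the call (adjusted p between 0.0539 and 0.192), as did median centring (0.0576), no filter (0.0668), the male-type arrays alone (0.136) and the 6 arrays alone (0.0978). Ifit2, which binds viral RNA and hinders its translation, read 8.41, 7.99 and 7.96 with 0.2 µg of MCC, against 9.004, 8.91 and 8.45 with 0.2 µg of 102S, with no overlap. Its difference was -0.67 ± 0.18 log2 (adjusted p = 0.0270). That call was lost without replicate 2 (0.114) or 3 (0.102) of 0.2 µg MCC, without replicate 1 (0.116) or 2 (0.106) of 0.2 µg 102S, and in the 6 arrays alone (0.0955). At 2 µg Ifit2 read 8.35, 8.28 and 7.93 with MCC, against 8.83, 8.69 and 8.58 with 102S. These groups did not overlap either, but the difference of -0.51 ± 0.18 did not pass (adjusted p = 0.0967), although 6 of 10 other settings called it. Isg20 at 2 µg did not pass (0.54 ± 0.20, adjusted p = 0.111), with overlapping groups, and quantile normalization called it (0.0439).

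The neighbours of Ifit2 in the same family gave no call at either dose. Ifit1 differed by -0.58 log2 (interval -1.15 to -0.02) at 2 µg and -0.11 (-0.68 to 0.46) at 0.2 µg, and Ifit3 by -0.48 (-1.22 to 0.25) and -0.07 (-0.81 to 0.66). Mx1, a dynamin-like GTPase that blocks influenza virus, read 5.93, 6.42 and 5.47 log2 with 2 µg of MCC, against 5.42, 5.20 and 5.04 with 2 µg of 102S, and 5.25, 5.78 and 5.25 with 0.2 µg of MCC, against 5.05, 4.68 and 4.81 with 0.2 µg of 102S. All MCC arrays lay above the 102S arrays of the same dose, but the differences of 0.72 (adjusted p = 0.0786) and 0.58 (adjusted p = 0.132) did not pass. At 2 µg Mx1 was called without replicate 3 of 2 µg MCC (0.96 ± 0.22, adjusted p = 0.0290). Rsad2, the antiviral enzyme viperin, differed by -0.63 log2 (-1.33 to 0.08) at 2 µg, with the 102S arrays of that dose spread from 6.23 to 7.43. Gbp2 and Gbp3, guanylate-binding proteins, Eif2ak2, the kinase PKR, and Samhd1, a dNTP hydrolase, also had no call, with differences between -0.26 and 0.13 at 2 µg and between -0.18 and 0.47 at 0.2 µg.

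Usp18, the protease that removes ISG15 and dampens the type I receptor, was the 1 member lower with MCC at 2 µg. It read 7.57, 7.57 and 6.96 log2 with 2 µg of MCC, against 8.21, 8.17 and 7.80 with 2 µg of 102S. At 0.2 µg it read 7.62, 7.43 and 7.57 with MCC, against 8.32, 7.88 and 7.93 with 102S. The peptides did not overlap at either dose. The difference was -0.69 ± 0.19 at 2 µg (adjusted p = 0.0380, 1.62-fold lower) and -0.50 ± 0.19 at 0.2 µg, where it did not pass (adjusted p = 0.106). It was called there with sex type as a factor (0.0392), with the replicate block (0.0255) and without replicate 3 of 2 µg MCC (0.0457). At 2 µg the call was lost without replicate 3 of 2 µg MCC (0.126), replicate 1 (0.130) or 2 (0.127) of 2 µg 102S, replicate 2 (0.0531) or 3 (0.0509) of 0.2 µg MCC or replicate 2 of 0.2 µg 102S (0.0505). It was also lost without the filter (0.0529) and in the male-type arrays alone (0.0926). Trafd1, Parp14 and Ifi35, which have been linked to the control of innate signalling, were not called, with differences between -0.26 and 0.12 at 2 µg and between -0.30 and 0.16 at 0.2 µg.

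Of 4 genes of antigen processing, limma called 0 between the peptides at either dose. At an unadjusted p under 0.05 the count was 0 at 2 µg and 1 at 0.2 µg, where 8.6% of all genes were higher and 16.2% lower at 2 µg, and 14.9% higher and 15.5% lower at 0.2 µg. Psmb8, Psmb9 and Psmb10 are the catalytic subunits that interferon brings into the proteasome. Psmb8 read 10.89, 10.81 and 10.62 log2 with 2 µg of MCC, against 11.02, 10.98 and 10.85 with 2 µg of 102S, and 10.99, 10.82 and 10.67 with 0.2 µg of MCC, against 11.01, 11.02 and 10.69 with 0.2 µg of 102S. Psmb9 read 10.33, 10.30 and 10.05 with 2 µg of MCC, against 10.29, 10.19 and 10.10 with 2 µg of 102S, and 10.22, 10.06 and 9.91 with 0.2 µg of MCC, against 10.20, 10.25 and 9.89 with 0.2 µg of 102S. Psmb10 read 9.83, 10.01 and 9.67 with 2 µg of MCC, against 9.84, 10.13 and 10.10 with 2 µg of 102S, and 9.85, 10.21 and 10.17 with 0.2 µg of MCC, against 10.03, 10.08 and 10.31 with 0.2 µg of 102S. The groups overlapped in each of these pairs, and the intervals of all 3 genes lay between -0.48 and 0.30 log2. Tap1, the transporter that carries peptides into the endoplasmic reticulum and whose start region overlaps that of Psmb9, differed by -0.12 (-0.38 to 0.14) at 2 µg. At 0.2 µg its groups did not overlap, but the difference of -0.36 (-0.62 to -0.10) did not pass (adjusted p = 0.0631), although 5 of 10 other settings called it, as did the omission of replicate 3 of 2 µg MCC (0.0408) or replicate 1 of 0.2 µg MCC (0.0351). At 2 µg Psmb8 was called lower under the β-actin covariate alone (0.00411), where peptide and β-actin gap cannot be told apart.

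The last role held Tor3a and Lgals3bp. Tor3a, an ATPase of the torsin family, read 6.02, 5.98 and 6.17 log2 with 0.2 µg of MCC, against 5.25, 4.91 and 5.73 with 0.2 µg of 102S. The groups did not overlap and differed by 0.76 ± 0.20 (adjusted p = 0.0270). Its second probe set gave 0.26 ± 0.18 (adjusted p = 0.369). The call was lost without replicate 2 (0.0700) or 3 (0.0913) of 0.2 µg MCC, without replicate 1 (0.0859) or 2 (0.124) of 0.2 µg 102S, in the male-type arrays (0.137), in the 6 arrays alone (0.0908) and with the mean over its probe sets (0.0541). At 2 µg Tor3a read above 102S on every MCC array, with 0.43 (interval -0.01 to 0.88) and no call. Lgals3bp, a secreted glycoprotein, differed by 0.08 at 2 µg and -0.25 at 0.2 µg, with no call.

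**Figure D3:**
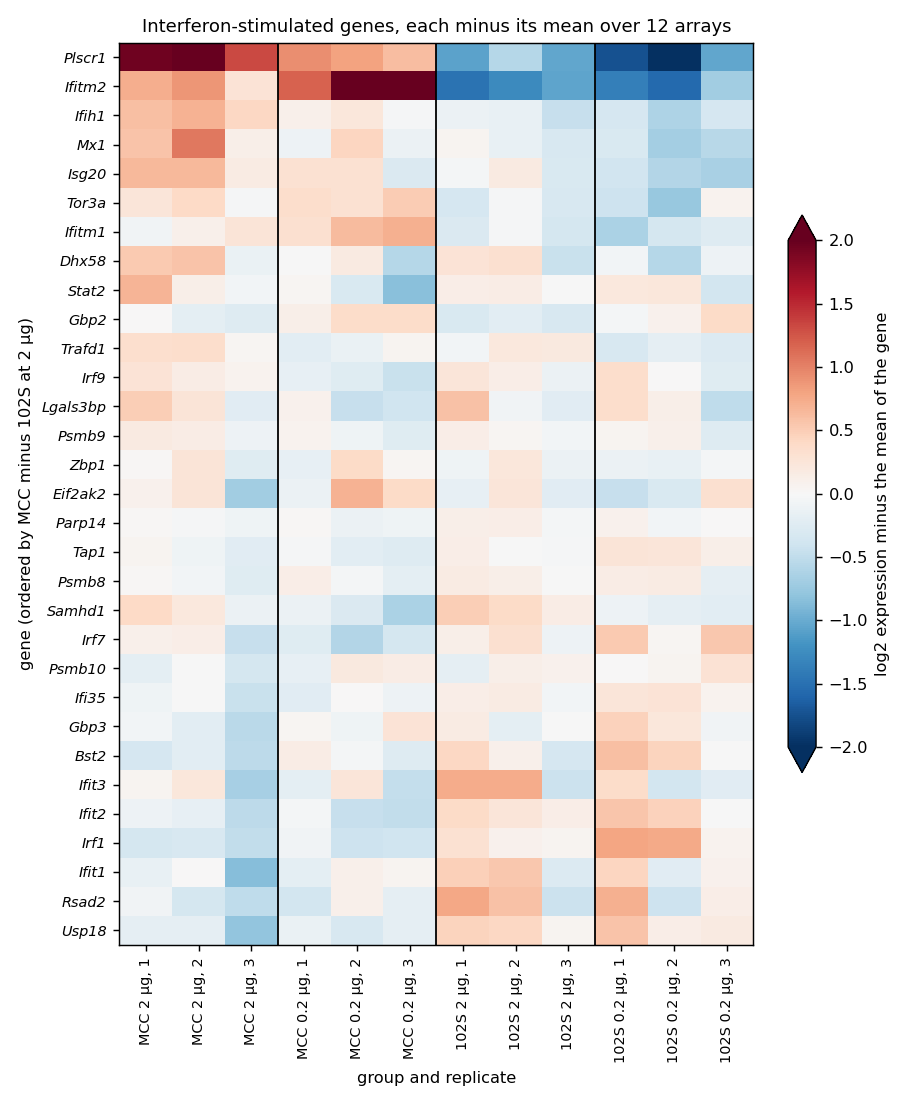
Log2 expression of the 31 tested interferon-stimulated genes on the 12 arrays, each gene minus its own mean, with colours limited at 2 log2 (largest deviation 2.26). Plscr1 and Ifitm2 separate the MCC arrays from the 102S arrays, whereas most other genes show shades near 0 in all 4 groups.

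Counted by arrays that do not overlap, 5 members lay wholly above at 2 µg, against 12.5% of all genes, and 3 wholly below, against 21.2%. At 0.2 µg, 7 lay above, against 15.6%, and 6 below, against 15.6%. Those above at both doses were Ifitm2, Plscr1, Mx1, Ifih1 and Tor3a. Those below at both doses were Irf1, Ifit2 and Usp18. The range of a member's 4 group means had a median of 0.584 log2, compared with 0.405 for all genes. It exceeded 1 log2 in 4 members (Plscr1, Ifitm2, Mx1 and Isg20), compared with 9.604% of genes, and stayed within 0.5 log2 in 12, compared with 62.79%. The highest of the 4 means was that of 2 µg MCC in 10 members, of 0.2 µg MCC in 6, of 2 µg 102S in 7 and of 0.2 µg 102S in 8, so the class had no common order. The all-gene split at 0.2 µg was 56.4% higher as deposited and 46.3% higher after median centring, and no called member changed its direction under either scaling.

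Without the replicate block, no member was called between the doses of either peptide on the probe set that stands for it. Between 2 µg and 0.2 µg of MCC, limma called 0 of 31 higher, against 0.717% of all genes, and 0 lower, against 1.21%. At an unadjusted p under 0.05, 6 were higher and 3 lower, against 7.65% and 10.4% of all genes. With the replicate block, 5 were called higher (Samhd1 0.00702, Irf9 0.0180, Stat2 0.0332, Ifih1 0.0358 and Plscr1 0.0421, adjusted p) and 2 lower (Ifitm2 0.0173 and Gbp2 0.0392). That block called 863 of all 7945 genes, in either direction. The limit for pairing was met here too, but it cannot tell pairing from sex type. Ifitm2 differed by -1.21 ± 0.30 log2 (2 µg minus 0.2 µg), with no overlap and adjusted p = 0.0693. Plscr1 differed in the other direction, by 0.98 ± 0.28 (adjusted p = 0.109) on its first probe set and 1.62 ± 0.18 (adjusted p = 0.00107, 3.06-fold) on its second, which was called. The pair that separated the peptides most thus differed in which dose of MCC gave the higher reading. Samhd1 read 10.25, 10.05 and 9.73 with 2 µg of MCC, against 9.72, 9.56 and 9.21 with 0.2 µg, at 0.51 ± 0.15 (adjusted p = 0.124), and of its other 2 probe sets 1 was called, at 0.62 ± 0.14 (adjusted p = 0.0496).

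These dose values of MCC depended on the setting. The β-actin gap did not overlap between the doses of MCC, so dose and this gap cannot be told apart here. Ifitm2 was called lower under quantile normalization (adjusted p = 0.0476), with sex type as a factor (0.0208), in the male-type arrays alone (0.0246), and without replicate 1 of 0.2 µg MCC (0.0117) or replicate 3 of 0.2 µg 102S (0.0372). Without replicate 1 of 0.2 µg MCC, Samhd1 was also called higher (0.0384) and Gbp2 lower (0.0399). Plscr1 was called higher under quantile normalization (0.0452), the β-actin covariate (0.0364), the mean over its probe sets (0.00363) and without replicate 3 of 0.2 µg 102S (0.0399). By arrays, 4 members lay wholly above at 2 µg (Plscr1, Irf9, Ifih1 and Samhd1), against 7.87% of genes, and 3 wholly below (Ifitm1, Ifitm2 and Gbp2), against 11.3%. Of the 31 members, 24 had intervals within 1 log2.

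**Figure D4:**
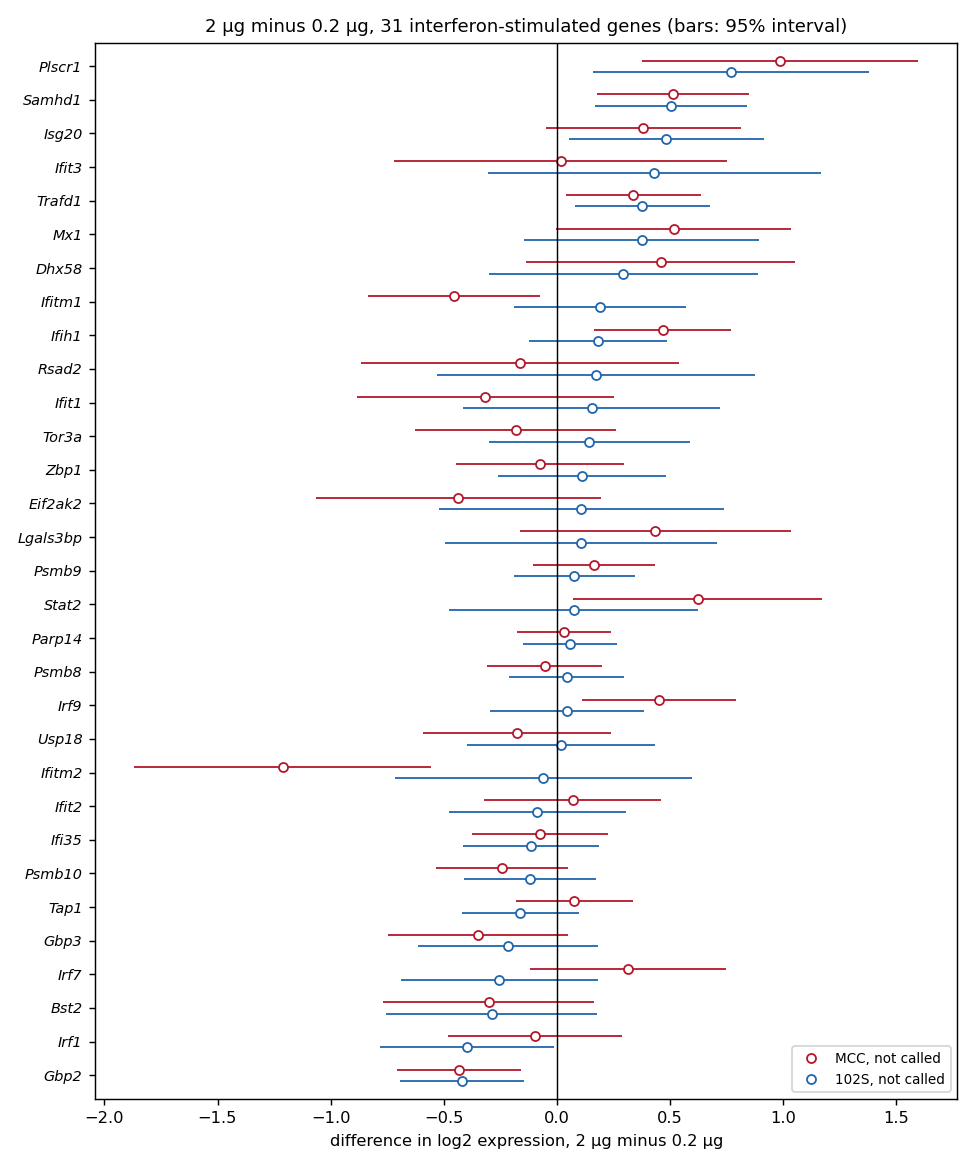
Differences in log2 expression (horizontal axis, 2 µg minus 0.2 µg) of the 31 tested interferon-stimulated genes, for MCC (red) and 102S (blue), with 95% intervals. No point passed adjusted p under 0.05 in this fit, which has no replicate block, and Ifitm2 (-1.21) and Plscr1 (0.98) lie at opposite ends for MCC.

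Between 2 µg and 0.2 µg of 102S, limma called 0 of 31 members higher, against 3.30% of all genes, and 0 lower, against 0.529%. At an unadjusted p under 0.05, 4 were higher and 2 lower, against 10.3% and 4.2% of all genes. The lowest adjusted p was that of Gbp2 (-0.42 log2, interval -0.70 to -0.14, adjusted p = 0.121). Between the doses of MCC Gbp2 differed by -0.43 (adjusted p = 0.115). Its probe set is of the kind whose probes can also match other transcripts. On its second probe set Gbp2 had closer means, 8.86 with 2 µg and 9.18 with 0.2 µg of 102S, and 8.98 and 9.24 with MCC. Samhd1 read 10.34, 10.22 and 9.99 with 2 µg of 102S, against 9.74, 9.66 and 9.64 with 0.2 µg, a difference of 0.50 ± 0.15 (adjusted p = 0.129) much like that with MCC. Its groups did not overlap. Plscr1 differed by 0.77 (0.16 to 1.38) and Ifitm2 by -0.06 (-0.71 to 0.60), from means below the filter level. By arrays, 3 members lay wholly above (Isg20, Samhd1 and Trafd1), against 14.8% of genes, and 1 wholly below (Gbp2), against 8.02%. Intervals lay within 1 log2 in 29 of 31. Without replicate 3 of 0.2 µg 102S, Plscr1 was called higher (1.08, adjusted p = 0.0380) and Irf1 lower (adjusted p = 0.0214).

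The interaction subtracts the peptide difference at the low dose from the one at the high dose, and tested whether it changed with dose. Limma called 0 of 31 members higher, against 0.0629% of genes, and 0 lower, against 0.843%, and at an unadjusted p under 0.05 the counts were 0 and 2, against 1.96% and 7.68% of all genes. Ifitm2 had -1.15 ± 0.43 log2 (adjusted p = 0.432) and Plscr1 0.22 ± 0.40 (adjusted p = 0.879), or 1.13 ± 0.25 on its second probe set (adjusted p = 0.0715). These values include means below the filter level and are inexact. A call at 1 dose and not at the other, as for Ifitm1, Irf1, Irf7 and Usp18, is therefore not a shown difference between doses.

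Other genes of the pathway were counted from lists. Of 9 interferon genes with a probe set, including Ifnb1 and Ifng, none passed the filter. Of 5 receptor chains, Ifnar2 was higher with MCC at 0.2 µg, with 8.08, 8.28 and 7.59 log2, against 7.37, 7.31 and 7.16 with 0.2 µg of 102S (0.70 ± 0.21, adjusted p = 0.0402). Its second probe set read 7.64, 7.54 and 7.39 with 0.2 µg of MCC, against 7.06, 7.19 and 6.75 with 0.2 µg of 102S, with no overlap, and was also called higher (0.52 ± 0.15, adjusted p = 0.0339). On the first probe set the difference did not pass at 2 µg (-0.27, interval -0.72 to 0.18), and Ifnar2 was higher with 2 µg than with 0.2 µg of 102S (0.93 ± 0.21, adjusted p = 0.0288), where the second did not pass (0.53 ± 0.15, adjusted p = 0.0879). Ifnar1 (0.22 and 0.21), Ifngr1 (-0.37 and -0.59), Ifngr2 (-0.86 and -1.19) and Il10rb (-0.19 and -0.10) had no call at 2 µg or 0.2 µg. Ifngr2, a chain of the interferon-gamma receptor, read 5.82, 5.41 and 5.46 with 2 µg of MCC, against 7.02, 6.14 and 6.09 with 2 µg of 102S, with no overlap but wide spread. Its second probe set gave smaller differences of -0.46 and -0.28, without a call. Of 16 signalling genes, 2 were lower with MCC at 2 µg, and 1 was higher and 3 were lower at 0.2 µg. Among all genes 6.83% were lower at 2 µg, and 9.09% were higher and 7.02% lower at 0.2 µg. Socs3, the feedback inhibitor of cytokine receptors, was lower at both (-2.97 ± 0.55, adjusted p = 0.00516, and -2.82 ± 0.55, adjusted p = 0.00472), as was Irf3, a factor that induces interferon genes (-0.43 and -0.37). The probe sets of Socs3 and Irf3 are of the kind whose probes can also match other transcripts. Jak2, a receptor kinase, was higher at 0.2 µg (0.37), and Pias1, a SUMO ligase, was lower (-0.52).

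A further list of 68 interferon-stimulated genes outside the 37 had 45 tested. With MCC at 2 µg, 1 was higher and 5 were lower, and at 0.2 µg, 3 were higher and 9 were lower, with medians of -0.10 and -0.25 log2. Of all genes, 4.43% were higher and 6.83% lower at 2 µg, and 9.09% higher and 7.02% lower at 0.2 µg, with medians of -0.05 and -0.01. Lower genes included GTPases that interferon-gamma induces and that attack the vacuoles of intracellular microbes. The guanylate-binding proteins among the 37, Gbp2 and Gbp3, were not called between the peptides. Gbp2 had higher means with MCC at both doses, and Gbp3 had lower ones. Gbp7 read 7.86, 7.79 and 7.15 with 2 µg of MCC, against 9.63, 9.27 and 9.17 with 2 µg of 102S (-1.76 ± 0.19, adjusted p = 0.0002). It read 8.81, 8.35 and 8.63 with 0.2 µg of MCC, against 10.02, 9.94 and 9.94 with 0.2 µg of 102S (-1.37 ± 0.19, adjusted p = 0.000423). It was the 1 gene of this list called between the doses of MCC (-0.99 ± 0.19, adjusted p = 0.0212). Igtp was lower at both doses (-0.54 and -0.83), and Irgm2 at 0.2 µg (-1.39 ± 0.22, adjusted p = 0.00124). Slfn8 was lower at 2 µg (-1.16 ± 0.18, adjusted p = 0.00203).

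Higher genes of that list were Ifi27l2a, a small membrane protein, at 2 µg (0.75 ± 0.16, adjusted p = 0.0114) and 0.2 µg (1.25 ± 0.16, adjusted p = 0.000224), and Ms4a4c and Pnp at 0.2 µg. Ms4a4c, of the tetraspan MS4A family, read 10.06, 10.45 and 10.28 with 0.2 µg of MCC, against 8.14, 8.48 and 8.83 with 0.2 µg of 102S (1.78 ± 0.17, adjusted p = 1.81e-05). At 2 µg it read 10.16, 10.22 and 10.25 with MCC, against 9.70, 10.09 and 9.998 with 102S, with no call. That probe set is also of the kind that can match other transcripts. The 3 arrays of 0.2 µg 102S stood below all others. Ms4a4c was the 1 gene of these lists called in the interaction (-1.50 ± 0.24, adjusted p = 0.00952). Pnp, a purine-salvage enzyme, differed by 0.76 ± 0.14 (adjusted p = 0.00376).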

How the data were processed

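Expression was measured in 12 samples, 3 in each of 4 groups, from 100 ng of total RNA on Affymetrix 3′ arrays. Values were used as deposited, on a log2 scale between 1.86 and 14.7. The scanner software was GCOS 1.4 per the submitters' processing notes, and for the log2 values themselves the authors' steps are not given in the sources used. Array medians differed by at most 0.0893 log2, under the limit of 0.15 set for rescaling, so none was applied. Of 22690 probe sets, 20393 had 1 gene symbol in the platform annotation, 691 several and 1606 none, and 64 were controls and left out. Probe sets with a mean at or above the 40th percentile (log2 4.475) were tested with limma 3.58.1 in R 4.3.3 on 4 group means over all 12 arrays, with moderation that follows intensity (residual df 8, prior df 4.16). Adjustment was by Benjamini-Hochberg across all 13556 tested probe sets, with a threshold of 0.05. The probe set of highest mean stood for a gene, and intervals are 95%. A fold is the antilog of the log2 difference.

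The 5 comparisons were the peptides at each dose, the doses of each peptide, and their interaction. Members, gene lists and marker lists were chosen with earlier results of these data known. Values on every array are given for Ifitm2, Plscr1, the 4 called members of largest difference in each comparison and the 4 uncalled members of highest mean, and those printed for other members were chosen after their values were seen. Receptors and up to 3 called genes of each other list are named. The summed level of a marker list is log2 of the summed linear values. The fit of 4 group means ignored pairing in every comparison, and the replicate block was run on all of them as an alternative. The limit for pairing in a comparison was that all 3 same-numbered pairs deviated from their group means with a correlation over 0.1. This held for the peptides at 2 µg (0.195 to 0.601) and the doses of MCC (0.203 to 0.562), but not for the peptides at 0.2 µg (-0.287 to 0.792) or the doses of 102S (-0.0637 to 0.797). Over all groups the median was 0.474 for 18 same-numbered pairs and -0.338 for 36 others. This pairing comes from the data, not the labels, and replicate 1 was the female-type array throughout. The alternatives were quantile normalization, median centring, no filter, the replicate number as a block, sex type as a factor, male-type arrays alone, β-actin as a covariate, the compared groups alone, the mean over probe sets, omission of each array, and, added after seeing the data, omission of the 2 arrays of widest β-actin gap. The fit was tested on simulated data. Arrays carry no read depth, and their number limits the precision. The median SE of a group difference was 0.184 log2.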

Additional observations from a re-analysis of the deposited data

How the results depend on the processing

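No difference changed sign past the threshold. Plscr1 and Ifitm2 at both doses, Ifih1 at 2 µg and Ifitm1 at 0.2 µg kept their calls in all 10 settings and 12 omissions of 1 array. At 2 µg the difference of Ifitm2 ran from 1.74 to 2.23 log2 over the settings and that of Plscr1 from 2.48 to 2.95, and at 0.2 µg they ran from 2.90 to 3.30 and from 2.27 to 2.83. Of 12 arrays, 9 correlated best with their own replicate number. The replicate block gave 5 higher and 3 lower members at 2 µg (1520 genes in all), 7 lower at 0.2 µg (2192 genes), 5 higher and 2 lower for MCC dose (863 genes), 2 higher for 102S dose (573 genes) and 212 genes in the interaction.

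Between the peptides at 2 µg, with 3 higher, 1 lower and 895 genes in all, the lower count was 3 under quantile normalization, sex type, the 6 compared arrays or with the 2 arrays of widest β-actin gap removed, 5 under the β-actin covariate (2011 genes), and 0 without the filter or in male-type arrays alone (488 genes). At 0.2 µg, with 6 higher, 3 lower and 1280 genes, the higher count was 3 in male-type arrays alone, and 3 with 0 lower in the 6 compared arrays (720 genes). Sex type gave 5 lower (1928 genes), and the β-actin covariate 2306 genes. For MCC dose, with no member and 153 genes, the calls were 1 higher and 1 lower under quantile normalization, 2 and 2 with sex type (502 genes), 0 and 2 in male-type arrays (297 genes), 1 and 2 with β-actin (346 genes), and 1 higher with the mean over probe sets. The 6 compared arrays gave 50 genes, and omission of the 2 arrays 65. For 102S dose, with no member and 304 genes, they were 1 higher with sex type (459 genes), 1 higher and 2 lower with β-actin (937 genes), 1 and 1 without the 2 arrays, 1 lower with the mean over probe sets, and 192 genes in male-type arrays. The interaction, with 72 genes, gave 166 with sex type and 191 with β-actin. The cause of these changes was not tested.

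Omitting 1 array gave 3 to 4 higher and 0 to 2 lower members at 2 µg (472 to 1018 genes), 3 to 6 and 1 to 5 at 0.2 µg (720 to 1784), 0 to 1 and 0 to 2 for MCC dose (42 to 663), 0 to 1 and 0 to 1 for 102S dose (154 to 345), and 43 to 100 genes in the interaction. Readings under the filter level bound the differences of Ifitm1, Ifitm2 and Plscr1, and 3 arrays a group limit the rest.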
